A study of Mus musculus with 6 samples.

Results

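Macrophages are phagocytes that live in most tissues, the ovary included, and the 35 genes described here mark them and the wider family of myeloid cells. The genes were chosen by symbol from commonly used markers of these cells, with earlier results of these data in view, and 35 of 35 were measured, out of 18193 genes that the arrays gave a value for. They encode receptors for antibodies and for microbial surfaces, adaptor proteins, integrins, lysosomal proteins, scavenger receptors and surface proteins of the haematopoietic lineage. Transcripts were measured in secondary follicles dissected with needles from the ovaries of female C57BL/6J mice, obtained as specific pathogen-free. The paper raises the possibility that these mice had nevertheless caught a virus, which was not tested here. The groups were young mice of 9 weeks and old mice of 32 weeks, with 3 arrays each (Affymetrix, whole mouse genome), and age was the only difference that the labels gave between them. The labels call the arrays of a group biological replicates, and the number of mice behind each was not given.

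Macrophages form under the growth factor receptor Csf1r and the transcription factor Spi1, also called PU.1. In the ovary they are known to sit in the stroma and theca and in regressing follicles and corpora lutea, where they clear dying cells, while an intact secondary follicle has the oocyte, granulosa cells and a young theca layer. A dissected follicle can carry cells from around it. In tissue RNA of this kind, a higher level from more cells of a type and one from more RNA per cell cannot be told apart.

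Values are log2 of the deposited intensity, and each gene is represented by its brightest probe set, so a value can be compared between arrays but not between genes. A gene was called where its fold change was at least 2 and its limma adjusted p was at most 0.05. Of all genes, 0.638% were called higher in the old group and 0.126% lower. Without the fold limit, 10.1% were higher and 13.3% lower at the same adjusted p.

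Of the 35 markers, 4 were called higher in follicles of the old mice (Ctss, Mpeg1, Cd52 and Ms4a7) and 0 were called lower. Without the fold limit 16 were higher, among them Tyrobp, Ptprc, Fcer1g and Csf1r, and 2 were lower, Lyz2 and Lgmn. The remaining 17 did not pass the adjusted p, 12 with a positive change and 5 with a negative one, between -0.27 and 0.40. The median log2 change of the markers was 0.32, beside -0.0042 for all genes, with a range of -0.32 to 1.36. In 19 markers every old array lay above every young array and in 2 every old array lay below, beside 18.9% and 23.7% of all genes. The intensities of the markers, summed in each array, were 1118, 1139 and 1102 in the young arrays and 1471, 1508 and 1498 in the old ones. The old arrays' sums were thus 29.1% to 36.8% above those of the young arrays, with SDs of 18.7 in the young and 19.3 in the old group.

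**Figure D1:**
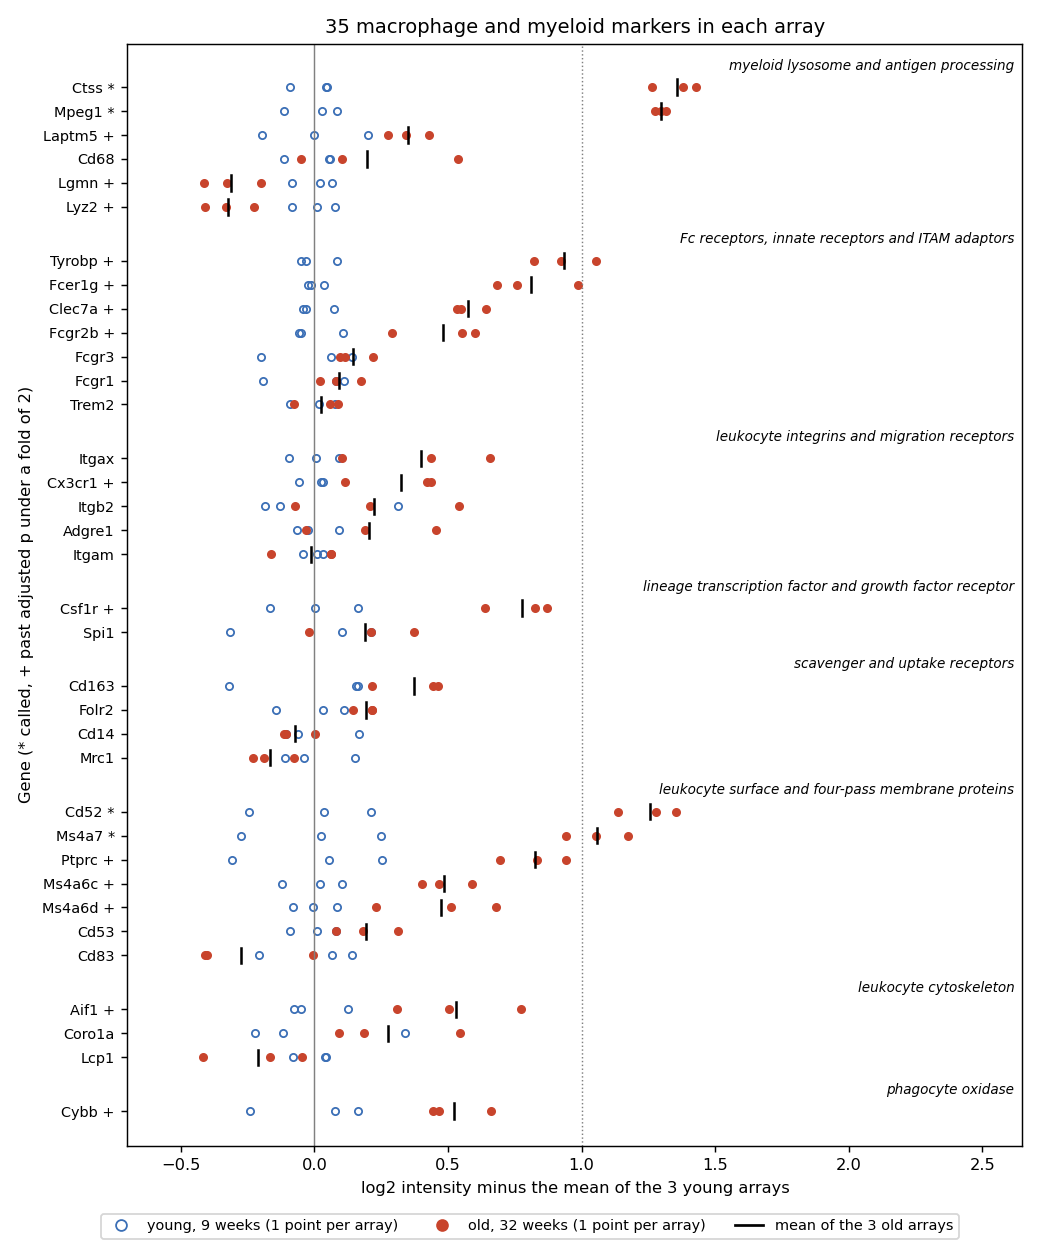
Each of the 35 markers in each of the 6 arrays, grouped by role; the horizontal axis is log2 intensity minus the mean of the 3 young arrays, open points are young, filled points old, and the black bar is the mean of the old group. Called markers (4) lie past the dotted line at 1, and Lyz2 and Lgmn have their old arrays to the left of the young ones.

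The lysosomal and antigen-processing proteins held the largest rise and also both falls. Ctss, cathepsin S, a protease that trims the invariant chain so that MHC class II can load peptide, was at 5.96, 5.82 and 5.95 in the young arrays and 7.18, 7.29 and 7.34 in the old arrays. The groups stood far apart, and the log2 change was 1.36 (SE 0.07, adjusted p 3.3e-05 by limma), a 2.56-fold rise. Mpeg1, perforin-2, a pore-forming protein of phagocytes that acts on engulfed bacteria, was at 5.37, 5.17 and 5.31 in the young arrays and 6.56, 6.58 and 6.60 in the old. Its 3 old arrays lay close together, and it rose 2.46-fold (log2 change 1.30, SE 0.06, adjusted p 3.3e-05 by limma). Lyz2, lysozyme, which cleaves bacterial cell walls, went the other way, from 6.01, 6.17 and 6.10 in the young arrays to 5.86, 5.76 and 5.68 in the old. Lgmn, the asparaginyl endopeptidase legumain, was at 7.19, 7.24 and 7.09 and then 6.84, 6.97 and 6.76. Neither gene overlapped between the ages, and they fell by 0.32 (adjusted p 0.016) and 0.31 (adjusted p 0.021) on the log2 scale, by limma. These falls are small beside the rises, and neither passed the adjusted p without young replicate 2 or without old replicate 3. Lgmn also missed it without young replicate 1 or old replicate 1, and Lyz2 without young replicate 3. Laptm5, a lysosomal membrane protein of haematopoietic cells, rose by 0.35 (adjusted p 0.045), a pass that was lost without any one array except young replicate 1. Cd68, a lysosomal glycoprotein much used as a macrophage stain, had old arrays at 4.77, 5.36 and 4.93, and its change of 0.20 did not pass (adjusted p 0.36).

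Of 7 surface and four-pass membrane proteins, 2 were called and 5 passed the adjusted p. Cd52, a small glycosylphosphatidylinositol-anchored glycoprotein of leukocytes that lymphocytes carry too, was at 4.31, 4.59 and 4.76 in the young arrays and 5.69, 5.91 and 5.83 in the old. Its lowest old array stood well above its highest young array, with a rise of 2.39-fold (log2 change 1.26, SE 0.12, adjusted p 0.00065). Its 95% interval, 0.98 to 1.53, reaches below the fold limit, and with 16 added to the intensities its change was 0.87, past the adjusted p but not called. Ms4a7, a four-pass protein of macrophages, was at 4.68, 5.20 and 4.98 in the young arrays and 5.89, 6.00 and 6.13 in the old. The rise was 2.08-fold (log2 change 1.06, SE 0.13, adjusted p 0.0020), and its 95% interval, 0.75 to 1.36 on the log2 scale, spans the fold limit of the call. It fell below that limit without young replicate 1 (0.92) or old replicate 3 (0.997), while still past the adjusted p. Ptprc, CD45, the tyrosine phosphatase that nearly all leukocytes carry, was at 3.60, 3.96 and 4.16 in the young arrays and 4.60, 4.85 and 4.74 in the old. It rose 1.77-fold with a wide spread among the young arrays (SD 0.28, log2 change 0.82, SE 0.14, adjusted p 0.0065). The related four-pass proteins Ms4a6c and Ms4a6d rose by 0.49 (adjusted p 0.0054) and 0.47 (adjusted p 0.023). Ms4a6d missed the adjusted p without young replicate 1 or 2 or old replicate 1 or 3, and with its probe sets averaged (0.12, adjusted p 0.19). Its value comes from a probe set shared between transcripts, and without such probe sets its change was -0.06 (adjusted p 0.72). Both of its other probe sets lay under the lower quartile of all probe sets, near background. Their means were 3.10 and 1.82 in the young and 3.04 and 1.77 in the old group. Cd53, a tetraspanin of leukocytes, had a change of 0.19 (adjusted p 0.11). Cd83, found on activated dendritic and B cells, had the most negative value among the markers that did not pass, -0.27 (adjusted p 0.18).

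**Figure D2:**
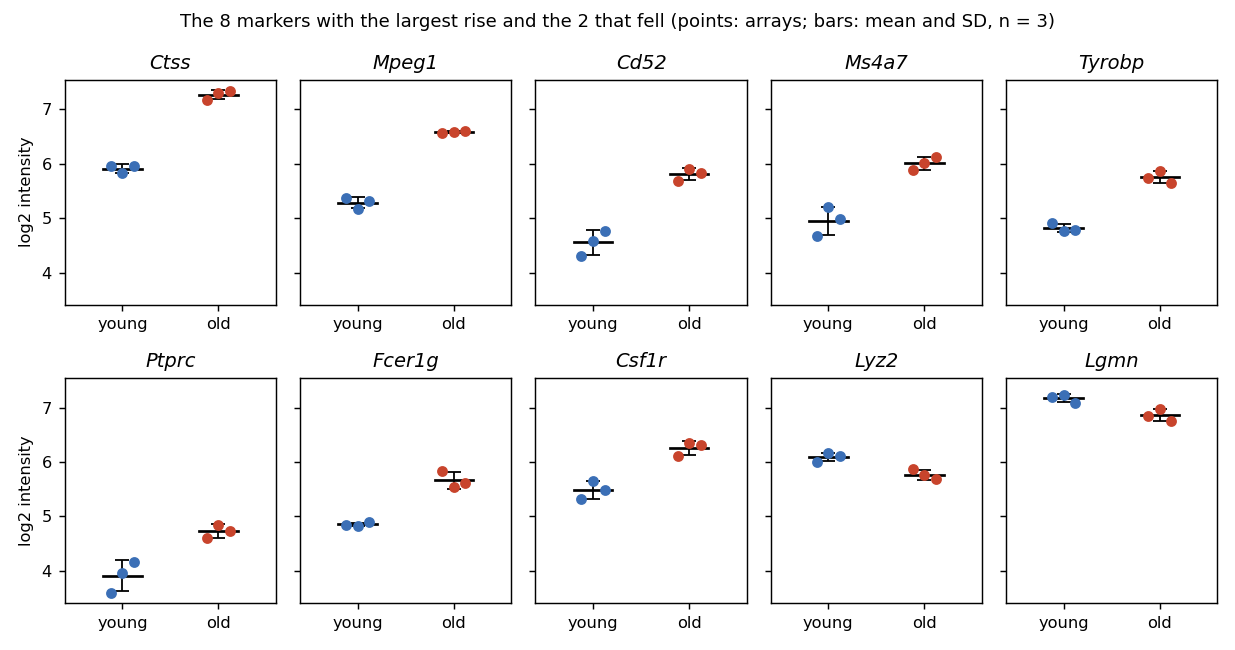
Log2 intensity of the 8 markers with the largest rise and the 2 that fell, in the 3 young and 3 old arrays of each panel; points are arrays, and bars give the mean and SD (n = 3). In all 10 panels the young and old points do not overlap, and only Lyz2 and Lgmn are lower in the old group.

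The upstream sequences of 3 of the called genes are shown because the members that rose most can be set beside the short motifs known for myeloid and interferon-driven transcription. That of Cybb is shown for its 3 matches to one motif. Each run is the 250 bases before the most upstream start that RefSeq lists (build GRCm38.p6), at chr3:95526536-95526785 for Ctss and chr19:12460520-12460769 for Mpeg1 (both plus strand), and at chr19:11336147-11336396 for Ms4a7 and chrX:9469325-9469574 for Cybb (both minus strand). They read 5′ to 3′ toward the gene, with each motif match in capitals.
Ctss: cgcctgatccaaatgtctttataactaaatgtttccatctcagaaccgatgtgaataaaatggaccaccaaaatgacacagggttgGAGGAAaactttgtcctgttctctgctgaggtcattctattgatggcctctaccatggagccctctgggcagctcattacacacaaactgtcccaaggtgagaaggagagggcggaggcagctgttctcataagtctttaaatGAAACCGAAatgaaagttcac
Mpeg1: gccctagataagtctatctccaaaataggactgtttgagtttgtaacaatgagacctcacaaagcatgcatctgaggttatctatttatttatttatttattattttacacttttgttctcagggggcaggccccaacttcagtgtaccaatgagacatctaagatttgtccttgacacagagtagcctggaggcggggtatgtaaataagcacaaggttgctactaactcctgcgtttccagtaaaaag
Ms4a7: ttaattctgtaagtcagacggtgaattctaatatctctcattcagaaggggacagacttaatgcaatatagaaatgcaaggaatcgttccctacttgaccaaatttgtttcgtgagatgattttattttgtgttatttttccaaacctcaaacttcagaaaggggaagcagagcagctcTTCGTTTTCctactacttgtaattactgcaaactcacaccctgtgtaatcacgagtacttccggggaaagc
Cybb: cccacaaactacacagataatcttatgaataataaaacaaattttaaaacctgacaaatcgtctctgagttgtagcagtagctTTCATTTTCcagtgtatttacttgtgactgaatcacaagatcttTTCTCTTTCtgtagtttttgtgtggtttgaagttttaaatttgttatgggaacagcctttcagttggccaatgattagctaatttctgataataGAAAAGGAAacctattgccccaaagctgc

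4 motifs were searched on both strands: GAGGAA, the core that Spi1 binds; GAAANNGAA, within the interferon-stimulated response element; GGAANNGAA, bound jointly by ETS and interferon regulatory factors; and TTCNNNGAA, the STAT site called the gamma-activated site. Upstream sequences of 26 of the 35 markers were searched, and the other 9, with Tyrobp, Cd52 and Csf1r among them, were not analysed here. GAGGAA occurred in 12 of the 26 (46.2%), beside 23.1% of all 27025 promoters of that length. GAAANNGAA occurred in 6 (Aif1, Ctss, Cybb, Folr2, Ms4a6c and Ms4a7), which is 23.1%, beside 7.16% of all. GGAANNGAA was in 3 (Clec7a, Fcgr2b and Folr2) and TTCNNNGAA in 1 (Fcgr1), beside 7.04% and 7.14% of all. In 9 of the 26, Mpeg1 among them, no motif matched, and no 2 matches overlapped. In the Ctss run the GAAANNGAA match ends 13 bases before the start, and in Ms4a7 the match is on the other strand and ends 63 bases before it. A match is a description of the letters, not a bound site. Of the 26 markers searched, 12 were higher in the old group at the adjusted p. They made up 5 of the 12 with GAGGAA, 5 of the 6 with GAAANNGAA, 2 of the 3 with GGAANNGAA and 0 of the 1 with TTCNNNGAA, counts too small to set apart and given with no test.

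The Fc receptors, innate receptors and ITAM adaptors followed with 4 of 7 higher, none of them called. An ITAM is the tyrosine motif through which receptors without a signalling tail of their own reach the kinase Syk, and both adaptors that carry it here rose. Tyrobp, DAP12, the partner of Trem2 and many other receptors, was at 4.90, 4.77 and 4.79 in the young arrays and 5.74, 5.87 and 5.64 in the old. Fcer1g, the common gamma chain of the activating Fc receptors, was at 4.84, 4.83 and 4.89 and then 5.84, 5.54 and 5.62. Neither gene overlapped between the ages, and the rises were 1.91-fold (adjusted p 0.00033) and 1.75-fold (adjusted p 0.00094). The receptors that signal through these adaptors had smaller values. Trem2, a receptor for lipids, had a change of 0.02 (adjusted p 0.83) that turned negative after quantile or cyclic loess normalization. Fcgr3, an activating receptor for IgG, had a change of 0.14 (adjusted p 0.31), and Fcgr1, the high-affinity IgG receptor, one of 0.09 (adjusted p 0.51). Whether the adaptors and the receptors differ in their change was not tested. Clec7a, dectin-1, which binds fungal glucan, rose by 0.57 (adjusted p 0.00099), from 4.59, 4.48 and 4.47 to 5.15, 5.06 and 5.05. Fcgr2b, the inhibitory IgG receptor, rose by 0.48 on its brightest probe set (adjusted p 0.011). It had 0.06 and no pass once probe sets shared between transcripts were left out, here those with names ending in _a_at, _s_at or _x_at. The only one then left was near the dimmest signal of the arrays, with means of 1.67 (young) and 1.72 (old).

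Of the 2 genes that specify the lineage, 1 passed. Csf1r, the receptor for CSF1 and IL-34, was at 5.31, 5.64 and 5.48 in the young arrays and 6.12, 6.35 and 6.30 in the old, a 1.71-fold rise without overlap (log2 change 0.78, SE 0.10, adjusted p 0.0022). That holds for its brightest probe set. The other 2 changed by 0.21 and 0.10, the last with overlap, and with all of them averaged the change was 0.36 (limma adjusted p 0.0086). Spi1 had a change of 0.19 (adjusted p 0.41).

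Among the integrins and migration receptors 1 of 5 passed. Cx3cr1, the fractalkine receptor of resident macrophages and monocytes, rose by 0.32 (adjusted p 0.043), from 3.90, 3.91 and 3.82 to 4.30, 3.99 and 4.31. The second old array lay close to the young ones, and the gene missed the adjusted p without any one array except old replicate 2. Itgax, CD11c, had old arrays all above the young ones, with a change of 0.40 (adjusted p 0.069). Itgb2, the shared beta chain CD18, had a change of 0.22 (adjusted p 0.41). Itgam, CD11b, a defining marker of myeloid cells, was among the dimmest probe sets of the array, with group means of 2.16 (young) and 2.15 (old), so its value says little. Adgre1, an adhesion receptor widely used to mark mouse macrophages, was near the arrays' lower quartile too, at 3.31 and 3.51 (change 0.20, adjusted p 0.25).

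In the remaining roles few genes passed. Of the 4 scavenger and uptake receptors, 0 passed: Cd163, the haemoglobin receptor, had a change of 0.37 (adjusted p 0.095), the folate receptor Folr2 0.19 (adjusted p 0.11), the endotoxin co-receptor Cd14 -0.07 (adjusted p 0.56) and the mannose receptor Mrc1 -0.17 (adjusted p 0.18). In Cd163 and Folr2 the old arrays lay above all young ones, as in 18.9% of all genes. Cd163 was under the lower quartile of all probe sets, with means of 2.31 (young) and 2.68 (old). Of 3 cytoskeletal genes, Aif1, the calcium-binding protein IBA1, rose by 0.53 (adjusted p 0.019, lost without young replicate 2 or 3), while Coro1a, coronin-1A, had 0.27 (adjusted p 0.28) and Lcp1, the actin-bundling L-plastin, -0.21 (adjusted p 0.16). The only probe set of Aif1 is shared between transcripts, so Aif1 had no value once such probe sets were left out. Cybb, the catalytic subunit of the phagocyte oxidase, rose by 0.52 (adjusted p 0.017), from 4.43, 4.52 and 4.12 to 4.80, 4.82 and 5.02, and missed the adjusted p without old replicate 3. With its 3 probe sets averaged, the change of Cybb was 0.15 (adjusted p 0.22).

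14 of the markers had several probe sets on the array, 59 probe sets serving all 35, and each was also fitted on its own over 34945 probe sets. Of the 24 dimmer ones, 9 were higher and 1 lower at the adjusted p. The share over all 34945 probe sets is not given here. Over all genes, by their brightest probe set, 10.1% were higher and 13.3% lower. All probe sets had the same sign in 9 of the 14 genes. Fcgr2b spread most: a dimmer probe set, whose name ends in _s_at, was at 4.11, 4.11 and 3.87 in the young arrays and 5.29, 5.48 and 5.71 in the old. Its change of 1.46 (SE 0.12, adjusted p 0.00022) was the only call among the dimmer ones, against 0.48, 0.41, 0.27 and 0.06 for the other 4. Laptm5 likewise had 0.92 on one dimmer probe set (adjusted p 0.00062) and 0.35 on its brightest, with -0.09 to 0.15 on the other 3. The dimmer probe set passed where the brightest did not in Cd53 (0.54, adjusted p 0.0010), Coro1a (0.48, adjusted p 0.0062), Fcgr1 (0.54, adjusted p 0.036) and Lcp1 (-0.35, adjusted p 0.0051). For Csf1r the other 2 gave 0.21 (adjusted p 0.040) and 0.10, for Ms4a7 the other gave 0.33 (adjusted p 0.040), and for Ptprc 0.43 (adjusted p 0.046). The dimmer probe sets of Cd53 (1.72 in the young and 2.26 in the old arrays, on average), Ms4a7 (1.73 and 2.06) and Ptprc (2.28 and 2.71) lay under the lower quartile of all probe sets, 3.17, near background. The passing dimmer probe sets of Coro1a (2.95 and 3.43) and Fcgr1 (3.06 and 3.60) were close to it, with young means under it. In the 5 genes whose probe sets differed in sign, the dimmer ones of Cybb gave 0.12 and -0.18, those of Ms4a6d -0.06 and -0.04, the lowest of Coro1a -0.03, that of Cx3cr1 -0.05 and the lowest of Laptm5 -0.09. None of these passed. The -0.18 of Cybb, the -0.03 of Coro1a and both values of Ms4a6d came from probe sets under the lower quartile of all probe sets. Affymetrix names ending in _s_at mark probes shared between transcripts, so the Fcgr2b value may hold other transcripts. The alternative without shared probe sets also left out names ending in _a_at and _x_at. Whether those detect transcripts of other genes was not tested.

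**Figure D3:**
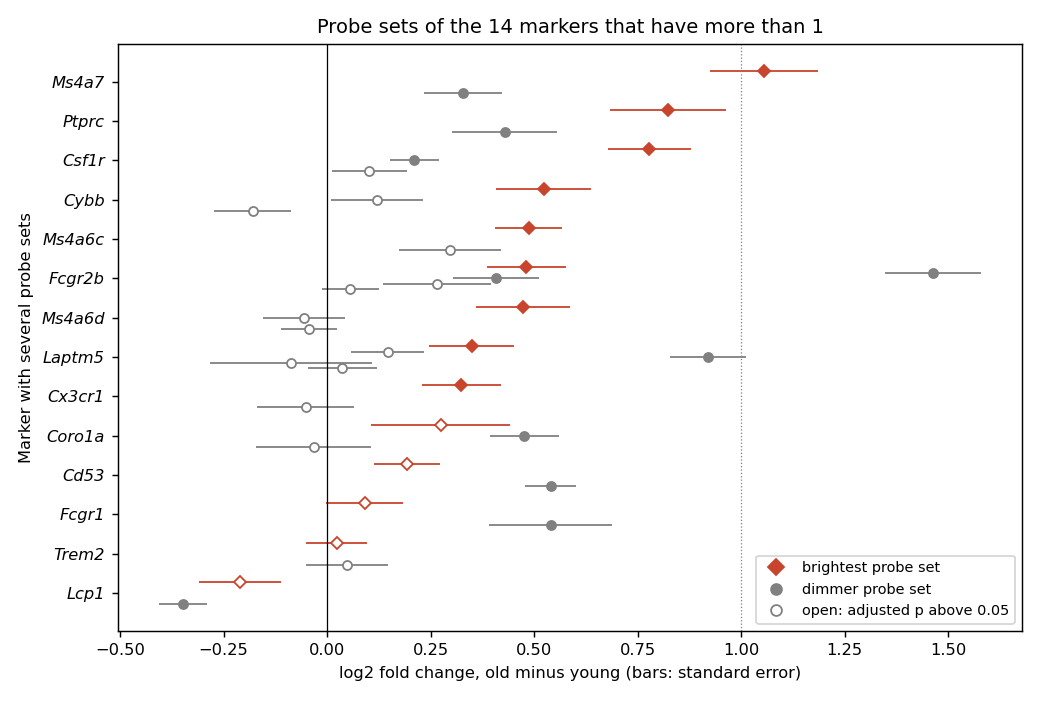
Log2 change, old minus young, of each probe set of the 14 markers with several; diamonds are the brightest probe set, circles the dimmer ones, open symbols have an adjusted p above 0.05, and bars are standard errors. The Fcgr2b circle at 1.46 stands to the right of the other probe sets of that gene.

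A list of further myeloid genes gave a smaller shift: of 67 measured out of 76 listed, 15 were higher and 1 lower at the adjusted p, with a median of 0.12. The share higher was 22.4%, beside 10.1% of all genes, of which 13.3% were lower. The 1 called was Ms4a6b, another four-pass protein, at 3.30, 2.93 and 3.22 in the young arrays and 5.01, 5.07 and 4.88 in the old (log2 change 1.83, SE 0.10, adjusted p 6.3e-05). Ly86, MD-1, which pairs with a Toll-like receptor homologue, rose by 0.91, and Cd9, a tetraspanin that oocytes carry for sperm fusion, fell by 0.92. All 3 C1q chains, which tissue macrophages make, passed: C1qa by 0.78, C1qc by 0.70 and C1qb by 0.19. Of 6 genes of MHC class II, whose peptide loading needs Ctss, 4 passed, H2-Aa by 0.78, H2-Ab1 by 0.60, Cd74 by 0.55 and H2-Eb1 by 0.45. Among 9 ligands of the marker receptors 1 rose and 1 fell: Ccl2, which draws monocytes, rose by 0.37, and Apoe, a ligand of Trem2, fell by 0.37. The 11.1% of ligands that were higher is near the share of all genes. The ligands of Csf1r were at 0.12 (Csf1) and -0.24 (Il34), and neither passed.

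Genes of other cell types changed with age to varying degrees, and their part in the marker values was not tested. Of all genes, 10.1% were higher and 13.3% lower at the adjusted p. The shares higher were 30% of the neutrophil, 18.8% of the T and NK cell, 16.7% of the mast cell and 0% of the B and plasma cell genes, with few genes in each list. The 10 neutrophil genes summed to intensities of 113 to 115 in the young arrays and 137 to 141 in the old, with 3 higher and S100a8, an abundant calcium-binding protein of neutrophils and some monocytes, called at 1.34. Of 16 T and NK cell genes, 3 were higher, among them Nkg7 by 0.59, and 8 were under the lower quartile of all probe sets. The sum of the 16 genes ran from 373 to 405 in the young and 406 to 469 in the old arrays. Zap70, the brightest of them with means of 7.52 (young) and 7.74 (old), overlapped between the ages and did not pass (limma adjusted p 0.23). B and plasma cell genes had 0 higher and 1 lower of 9, with overlapping sums of 389 to 407 and 360 to 393. Of 6 mast cell genes 1 was higher, Cpa3 by 0.27, and 1 was lower, Kit by -0.49, which is in the oocyte list too, and of 2 red blood cell genes measured Alas2 was higher by 0.77. Genes of epithelial, muscle, endothelial, and theca and stroma cells changed too. All 7 surface epithelium genes were higher, 3 of them called (Krt19 at 1.55, Upk3b at 1.17 and Upk1b at 1.04), with sums of 799 to 831 and then 1129 to 1198. Smooth muscle genes summed to 783 to 858 and 1277 to 1302, with 4 of 6 higher, and endothelial genes to 460 to 467 and 567 to 606, with 5 of 10 higher and 1 lower. Of 10 theca and stroma genes 5 were higher and 2 lower (Col1a2 by -0.43 and Tcf21 by -0.38), with a median of 0.25. Cyp11a1, the first enzyme of steroid synthesis, was called at 1.34, while Cyp17a1, another enzyme of that synthesis, was at -0.11 and did not pass. Their sums nearly met, at 4279 to 4601 in the young and 4602 to 4668 in the old arrays. In the oocyte list 11 of 15 genes were lower, with a median of -0.26, while granulosa cell genes had a median of 0.03, 1 of 11 being higher and 1 lower. The theca layer is part of the follicle as well, and where any of these changes arose was not tested. The defining markers of the labelled tissue were present in all arrays, the oocyte genes summing to 32231 to 33094 in the young and 27702 to 28131 in the old. All 11 measured interferon-induced genes were called higher, with a median of 2.97 and sums of 363 to 428 and 3612 to 3864. All of them but Xaf1 are among the upregulated genes that the paper names from these same arrays, so this count was known beforehand.

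**Figure D4:**
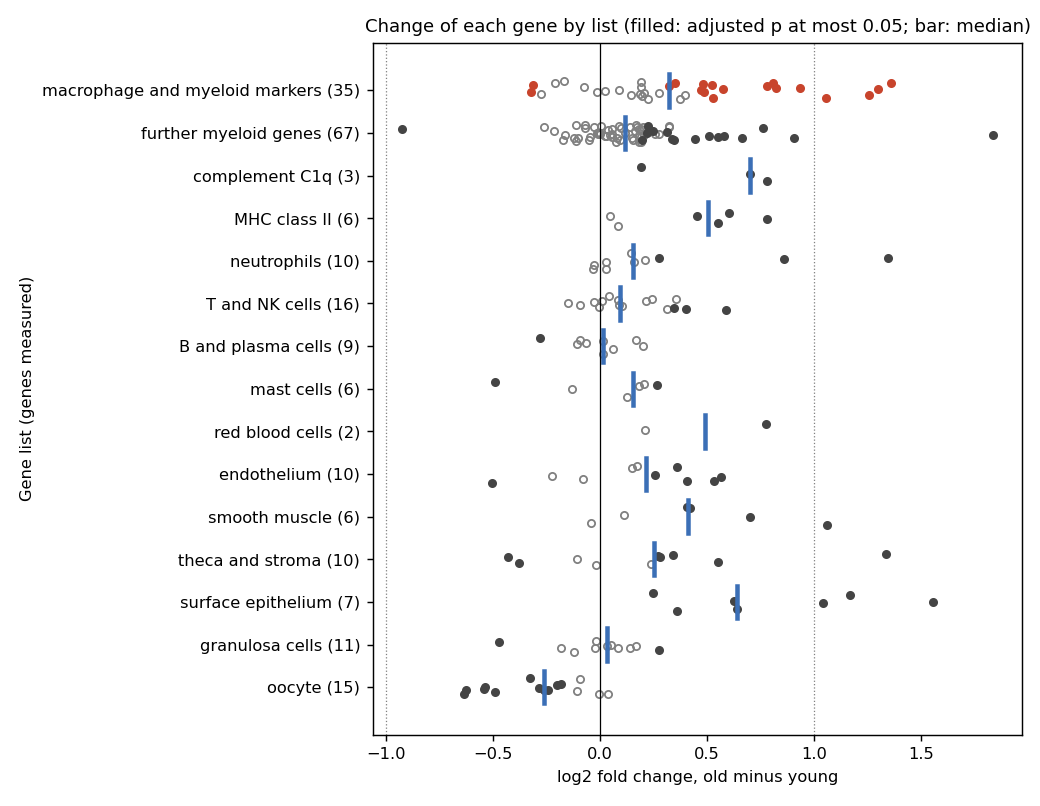
Log2 change, old minus young, of each gene in 15 gene lists, with the number of genes measured in parentheses; filled points have an adjusted p of at most 0.05 and the vertical bar is the list's median. The marker list, on top, has its median at 0.32, the surface epithelium list at 0.64 and the oocyte list at -0.26. The interferon-induced genes and the ligands are left out.

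The arrays also differed with age in 2 technical measures. The 3′ minus 5′ signal of the control probe sets, a sign of RNA length, went from 0.469 ± 0.0139 (young) to 1.51 ± 0.0048 (old) for Gapdh (SD, n = 3), and from 1.48 ± 0.033 to 2.53 ± 0.050 for Actb. The exact two-sided permutation p was 0.1 for both, the smallest that 3 arrays against 3 allow. Dim probe sets were somewhat brighter in the old group, with lower quartiles of 3.20 to 3.24 against 3.13 in each young array, and 20 of the 35 markers lay between the lower quartile and the median of all probe sets. Among the probe sets chosen for genes, which are brighter, the lower quartile and median of the mean log2 intensity were 3.83 and 6.31, with 25 markers between them and 6 below. Over all genes between these bounds the median change was 0.02 and 12.4% were higher at the adjusted p, while of the 25 markers 14 were higher and their median was 0.35. The part of either measure in the marker values was not tested.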

How the data were processed

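Total RNA from secondary follicles of 3 young and 3 old samples was hybridised to Affymetrix whole-genome mouse arrays. The authors summarised probe sets by RMA, for which the sources used here give no version. The deposited values are linear intensities, of which log2 was taken with no pseudocount. Of 45101 probe sets, those with a single gene symbol were used (932 with several symbols, 9211 not listed and 64 controls, most of these also not listed, were left out), symbols were updated by gene ID through RefSeq (GRCm38.p6), and each gene was represented by its brightest probe set, by the mean of all 6 arrays. Groups came from the sample labels. limma 3.58.1 in R 4.3.3 (lmFit, eBayes, two-sided, Benjamini-Hochberg over 18193 genes) was the test, checked on simulated data. P-values reflect only the spread among these arrays, part of which may be technical, and 3 arrays a group limit the precision. The markers and all gene lists were chosen with earlier results of these data known. Every marker is named or counted by role, and called markers and other members whose values matter are given array by array. Most named genes of other lists were called or among the smallest p of their list, but some, such as Csf1, Zap70 and Cyp17a1, were not. Other probe sets are given where they differ. Alternatives were SAM rewritten from its description, other choices of probe set, normalizations, a floor, weights and fold limit, the replicate number as a block, and each array left out.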

Additional observations from a re-analysis of the deposited data

Results flagged for a closer look

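A probe set of Fcgr2b whose name ends in _s_at, and which was not the one chosen to stand for the gene, changed by 1.46 on the log2 scale, from 4.03 in the young to 5.49 in the old group (limma adjusted p 0.00022 over 34945 probe sets). It drew attention as a called signal outside the main comparison, where the brightest probe set of the gene changed by 0.48.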

How the results depend on the processing

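With another way of processing, the median log2 change of the markers, 0.32 as reported, was 0.24 with the probe sets of each gene averaged, 0.21 without probe sets shared between transcripts (32 markers left), 0.26 after quantile and 0.27 after cyclic loess normalization, 0.14 with 16 added to the intensities, 0.24 with array weights, and 0.29 to 0.37 when 1 array was left out. The 4 calls became 2 with 16 added (Ctss and Mpeg1 left) and 8 with a fold limit of 1.5. Ms4a7 was under the fold limit with averaged probe sets (0.69), with 16 added (0.77) and with array weights (0.97), and Cd52 with 16 added (0.87). Of the 18 markers past the adjusted p, 10 passed in all alternatives that gave a value for each gene, all of them higher in the old group. Cybb, Ms4a6d and Cx3cr1 were lost with averaged probe sets, and Laptm5 and Cx3cr1 after quantile and cyclic loess normalization. Leaving out 1 array gave 12 to 15 markers higher and 0 to 3 lower. SAM gave 4 calls with 18 higher, and counting a marker if at least 1 of its probe sets passed gave 5 calls, 19 higher and 3 lower. The sign turned for Ms4a6d (-0.0558) and Coro1a (-0.0326) without shared probe sets, for Trem2 after quantile (-0.0301) and cyclic loess (-0.0191) normalization, and for Itgam with array weights (0.0327). With 1 array left out, Itgam ranged from -0.0521 to 0.0603, Cd14 from -0.125 to 0.0107, Fcgr1 from -0.00425 to 0.147 and Trem2 from -0.0229 to 0.0732. Samples sharing a replicate number did not deviate together (correlations 0.053, -0.0003 and 0.043), and with the replicate number as a block 4 markers were called, 15 were higher (Cx3cr1 lost) and 2 lower. Signal over background limits Itgam and Cd163, which lay under the lower quartile of all probe sets (3.17), and the dimmer probe sets of Cd53, Ms4a7 and Ptprc. It also limits the dimmest probe sets of Coro1a, Cybb, Fcgr2b and Laptm5 and both dimmer ones of Ms4a6d, which lay under that quartile too. The sign turns of Ms4a6d and Coro1a without shared probe sets came from such dim probe sets. The dimmer probe sets of Coro1a and Fcgr1 that passed lay close to that quartile.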
